A study of Mus musculus with 4 samples.

Results

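Sole introns of single-intron genes were taken as the introns of those genes that had exactly 1 intron in the deposited intron counts. The gene also needed a gene count of its own, not merged with an overlapping gene, of at least 100 counts summed over the 4 samples. Of 24963 genes with 207562 introns, 4232 genes had 1 intron, 4026 of these had a gene count of their own, and 800 reached 100 counts. The members were thus chosen by this gene count, summed over both genotypes, which is given here as a description only. Just inside the limit lay *Scrt1* and *Gm26613*, both with 100 gene counts, and just outside lay *1700095J12Rik* and *Gm15978*, both with 99.

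The study asked whether splicing is disturbed in spermatocytes that lack TDRD6, a Tudor domain protein of the male germ line. Total RNA depleted of ribosomal RNA was sequenced from testis cells of mice at 20 days post partum, from 2 *Tdrd6*-/- and 2 *Tdrd6*+/- samples. The cells were selected with magnetic beads for human CD4, which is expressed from the endogenous *Tdrd6* promoter, so the selection marks cells that use this promoter and the preparations are enriched for diplotene spermatocytes rather than pure. Each sample pooled at least 4 mice, and the controls were heterozygous, not wild type. The labels do not say whether the samples were prepared separately from separate litters, so a p-value measures the spread between these 4 samples.

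An intron is removed from the primary transcript by the spliceosome, a complex of small nuclear ribonucleoproteins, which joins the exons on both sides. RNA that still holds the intron gives intron counts, while spliced RNA gives counts on the exons and on the exon-exon junction. In a gene listed with 1 intron, that intron cannot be set against other introns of the same gene. The gene count was therefore taken as the reference within the gene. Genes of this kind include many long noncoding RNAs, compact coding genes and genes that arose from copied mRNA. A single listed intron need not mean a single splicing event. Exactly 1 annotated junction was listed for 674 members, and introns placed from the annotation were as short as 1 bp.

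For the 4 introns with the smallest adjusted p between the genotypes, the joined exon ends show what is left in the RNA once the intron is gone. They are given 5′ to 3′ from the annotated transcripts, with the end of the upstream exon in lower case and the start of the downstream exon in capitals, 30 bases in all. The introns lie at chr1:58997602-59003140 on the minus strand (*C2cd6b*), chr14:59158711-59178331 on the minus strand (*Gm5142*), chr14:6315078-6343496 on the minus strand (*Gm3618*) and chr14:4939061-4967071 on the plus strand (*Gm10410*) of mm10. The last pair of junctions is the same, base for base, so these letters cannot tell spliced RNA of *Gm3618* from that of *Gm10410*.
C2cd6b: aggagaactatacatGATTGTTTGGATAGA
Gm5142: cttcagccagccaggCCAACCAGAGGAACC
Gm3618: cagatggggaccaagTAGCATTGATCTTCC
Gm10410: cagatggggaccaagTAGCATTGATCTTCC

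The samples differed in how much of their signal was intronic. Gene totals ran from 26454326 to 31388750 counts and intron totals from 9603669 to 13937818. There were 52.7 and 41.9 intron counts per 100 gene counts in the *Tdrd6*+/- samples 1 and 2, and 42.5 and 30.6 in the *Tdrd6*-/- samples 1 and 2. The ratios below are therefore scaled, with each sample's intron counts brought to a common intron total and its gene counts to a common gene total. *Tdrd6* itself was at 1256 and 1344 CPM, the gene count scaled by the gene total of its sample, in the *Tdrd6*+/- samples against at 11.8 and 12.7 in the *Tdrd6*-/- samples. Among the marker lists, 7 spermatid markers summed to 10.1 and 12.96 CPM in the *Tdrd6*+/- samples against 23.4 and 21.03 in the *Tdrd6*-/- samples. The 7 Sertoli cell markers summed to 55.4 and 45.7 against 62.4 and 65.7, and 7 markers of spermatogonia and early meiosis to 26.6 and 25.4 against 31.9 and 35.6. For Leydig and peritubular cells and for blood cells and macrophages, the sums of the genotypes overlapped. The 9 measured markers of primary spermatocytes, *Tdrd6* among them, summed to 6107 and 5855 CPM against 5126 and 5213. Without *Tdrd6* the other 8 summed to 4851 and 4511 against 5115 and 5200, with 2 called higher and 0 lower, and no marker of any list was at 0 in total.

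The annotation listed 421 protein coding genes (52.6%), 115 antisense RNAs, 108 lincRNAs, 43 processed pseudogenes, 37 processed transcripts and 25 long noncoding RNAs with a bidirectional promoter. For 643 members the annotation showed exactly 1 gap between exons, which placed the intron. Of these, 205 lay within the coding part, 120 between exons of the 5′ UTR, 17 in the 3′ UTR and 301 in genes without a coding part. The placed introns had a median length of 1304 bp and ranged from 1 to 165921 bp. Among them, 132 contained an exon of an antisense gene and 19 an exon of another gene on the same strand, and it is not stated whether the counting used strand. For 52 members over 50% of the exonic 31-base words also occurred in another gene, so that their counts are uncertain.

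Intron signal varied widely between members. The mean scaled ratio had a median of 12.6 intron counts per 100 gene counts, with quartiles of 4.15 and 49.3. Longer introns gave higher ratios, with a median of 5.11 for introns of 50 to 499 bp, 10.3 from 500 to under 2000 bp, 30.2 from 2000 to under 10000 bp and 198 from 10000 bp. Per kilobase, intron counts were 19.7% of the gene counts per kilobase in the median member. By this measure per length, the median was 14.9% in the 5′ UTR, 14.8% in the coding part, 9.55% in the 3′ UTR and 30.5% in genes without a coding part. Among introns with at least 10 counts, the median was 24.3% for 548 placed members and 10.8% for 75884 placed introns of genes with more introns.

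**Figure D1:**
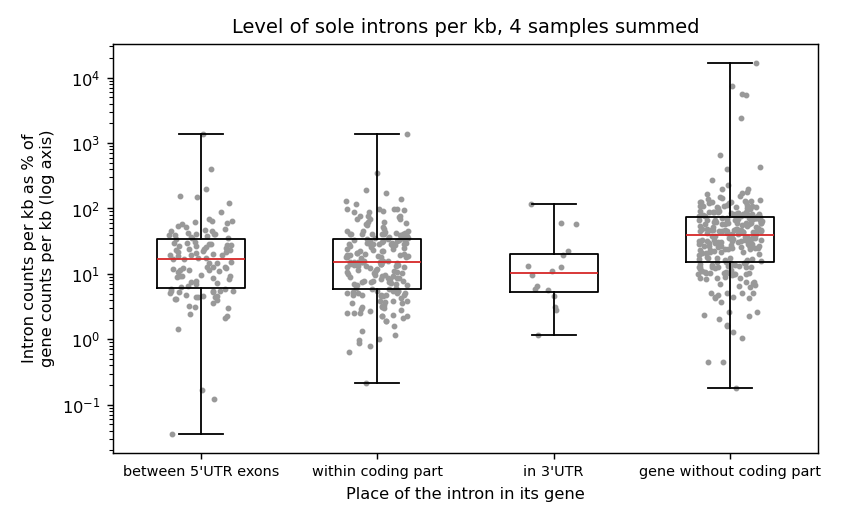
Intron counts per kilobase as a percentage of gene counts per kilobase (log axis) for placed sole introns with at least 1 intron count, all 4 samples summed, by place in the gene. Each point is an intron, boxes span the quartiles with the median in red, and whiskers span all values. The median of genes without a coding part lay highest, at 30.5% with the introns at 0 counts included.

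At the upper end, 126 members had a mean scaled ratio over 100 intron counts per 100 gene counts, and 37 of these introns contained an exon of an antisense gene. The 5 highest mean ratios belonged to *1700084C06Rik* (2872 per 100 gene counts), ENSMUSG00000022915 (1721), *AC157931.1* (1412), *Gm11508* (1407) and *Gm26692* (1386). The intron of *1700084C06Rik* spans 35889 bp and contains exons of *Raver1*, an RNA-binding protein gene, and of *Tyk2*, which codes for a Janus kinase. That of *Gm11508* contains exons of *Srsf1*, a splicing factor gene, and that of *Gm26692* exons of *Rpap2*, which codes for an RNA polymerase II phosphatase. None of these 5 introns passed the test between genotypes. Per kilobase, 55 members had a higher intron than gene level, of which 41 were in genes without a coding part. Of the 55, 36 had introns under 500 bp. The median level per kilobase was 90.3% under 50 bp, 34.1% from 50 to 499 bp and 18.4% from 500 to under 2000 bp. It was 12.2% from 2000 to under 10000 bp and 22.8% from 10000 bp. In coding genes this held for *Rbm15*, an RNA-binding protein of the mRNA methylation machinery, with 172%, for *Mrpl57*, a mitochondrial ribosomal protein gene, with 398%, and for *Socs1*, a suppressor of cytokine signalling, with 152%, all 3 named after their values were seen.

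At the lower end, 63 members had no intron count in any sample. The most abundant of them was *Ppp3r2*, the testis form of the regulatory calcineurin subunit, whose intron of 252 bp had 0 counts in all 4 samples beside 17726 and 21923 gene counts in the *Tdrd6*+/- and 23989 and 26927 in the *Tdrd6*-/- samples. Its junction was read 1575 and 1869 times in the *Tdrd6*+/- and 2232 and 2439 times in the *Tdrd6*-/- samples. *Gm16278* had 0 counts on an intron of 14586 bp beside 10124 gene counts and 486 junction counts, and *Hoxa4*, a homeobox gene, had 0 beside 4792 gene counts and 212 junction counts. Since the filters of the counting program are not stated, these introns are said only to be listed at 0. Among tested introns the lowest mean ratios were those of *C1qtnf4*, a secreted C1q-related protein gene (0.0952), *Rpl41*, which codes for a protein of the large ribosomal subunit (0.235), and *Zfp281*, a zinc finger transcription factor gene (0.271). The intron of *Rpl41* spans only 24 bp. Per kilobase these introns were at 0.0356%, 11.2% and 5.55% of the gene level, in the same order.

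The 4 most abundant genes showed how far the ratio can differ at high depth. *Fhl4*, a testis LIM domain gene, had 1.68 and 1.53 intron counts per 100 gene counts in the *Tdrd6*+/- samples against 1.68 and 2.09 in the *Tdrd6*-/- samples. *Hspa2*, the testis heat shock protein needed for meiosis, had 1.11 and 1.10 against 1.12 and 1.67. For both genes the *Tdrd6*-/- samples lay above the *Tdrd6*+/- samples, the first by little and the second by more. Such a lack of overlap in the higher direction was seen in 28.7% of all introns tested. Neither intron passed the test (edgeR adjusted p = 0.815 for *Fhl4* and 0.737 for *Hspa2*). *Gm26917*, a lincRNA, had 35.6 and 51.0 against 51.6 and 66.2, with 102485 gene counts in all but only 2 junction counts. The annotation showed no gap between exons in *Gm26917*, so its intron was not placed and its ratio cannot be read as splicing. *Ppp3r2* was at 0 throughout.

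Of the 800 sole introns, 674 had at least 10 intron counts and were tested, and 126 had fewer. With edgeR's quasi-likelihood test and Benjamini-Hochberg adjustment over all introns, 7 of the 674 (1.04%) passed a false discovery rate of 0.1, 2 higher and 5 lower in *Tdrd6*-/-. Over all 115437 introns tested the share was 0.869%, with 0.48% higher and 0.389% lower, so the share of the members was near that of introns in general. An unadjusted p under 0.05 was reached by 67 members. On simulated data this test found 0% of log2 changes of 1, and 100% of its calls there were false. The simulation gave every intron the same spread, drew intron and gene counts independently and changed 200 of 113063 introns. In the data the same test made 1003 calls, so these rates need not hold there. Calls near that size remain uncertain. DESeq2 gave an adjusted p for only 118 of the 674, of which 0 passed, beside 34 of 50533 introns in all (0.0673%), and 15 members had an unadjusted p under 0.05. Without *Tdrd6*+/- replicate 1 no member passed, and without *Tdrd6*-/- replicate 2 only *C2cd6b* did.

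*C2cd6b*, annotated as a lincRNA, had the smallest adjusted p. Its intron of 5539 bp gave 17.4 and 13.1 intron counts per 100 gene counts in the *Tdrd6*+/- samples against 5.67 and 8.51 in the *Tdrd6*-/- samples. Both *Tdrd6*-/- samples lay below both *Tdrd6*+/- samples, with a log2 fold change of -1.13 (SE 0.26) and an adjusted p of 0.0161 in edgeR. Unscaled, 158 and 140 intron counts stood against 80 and 73, while the gene was counted 715 and 1057 times against 1378 and 1162. The gene count itself did not pass its test (log2 fold change 0.38, edgeR adjusted p = 0.335), and neither did the junction per gene count (0.13, edgeR adjusted p = 0.966). Without *Tdrd6*+/- replicate 1 the adjusted p of the intron was 0.639, and without *Tdrd6*-/- replicate 1 it was 0.176.

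*Gm10410* and *Gm3618* lie on opposite strands of the start of chromosome 14 and have introns of 28011 and 28419 bp. *Gm10410*, an unprocessed pseudogene, had 319 and 190 intron counts per 100 gene counts in the *Tdrd6*+/- samples against 100.3 and 77.03 in the *Tdrd6*-/- samples. *Gm3618*, annotated as protein coding, had 244 and 161 against 120 and 69.5. In both, the genotypes did not overlap, with log2 fold changes of -1.49 (SE 0.37, edgeR adjusted p = 0.0279) for *Gm10410* and -1.12 (SE 0.28, edgeR adjusted p = 0.0359) for *Gm3618*. Their exons are not unique in the genome. All exonic 31-base words of *Gm10410* and 91.2% of those of *Gm3618* occur in another gene, so the gene counts under these ratios, 57 to 95 for *Gm10410* and 137 to 273 for *Gm3618* per sample, are uncertain. *Gm10410* had no junction count, while the same junction letters in *Gm3618* were counted 20, 28, 25 and 38 times. Both calls were lost without *Tdrd6*+/- replicate 1 (adjusted p = 0.771 and 0.815 in edgeR) and without *Tdrd6*-/- replicate 2 (0.429 and 0.734).

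*Gm5142*, a predicted coding gene further along chromosome 14, shares no exonic 31-base word with another gene. Its intron of 19621 bp had 44.0 and 31.5 intron counts per 100 gene counts in the *Tdrd6*+/- samples against 23.1 and 16.2 in the *Tdrd6*-/- samples. The groups did not overlap, and the log2 fold change was -0.93 (SE 0.24, edgeR adjusted p = 0.0395). The call was lost without *Tdrd6*+/- replicate 1 (0.848) and without *Tdrd6*-/- replicate 2 (0.577).

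*Siah1a* codes for a RING-type E3 ubiquitin ligase, and its intron of 19960 bp separates exons of the 5′ UTR. It had 91.2 and 95.7 intron counts per 100 gene counts in the *Tdrd6*+/- samples against 59.9 and 53.8 in the *Tdrd6*-/- samples. This was the smallest of the called changes, with a log2 fold change of -0.72 (SE 0.21) at an edgeR adjusted p of 0.0998, just inside the threshold. It rests on the most counts, 2026 and 1572 intron counts against 1171 and 819. An antisense gene, *Gm10638*, has an exon within the intron. Of the leave-one-out fits, only that without *Tdrd6*-/- replicate 1 still called it, and the adjusted p without *Tdrd6*+/- replicate 1, *Tdrd6*+/- replicate 2 and *Tdrd6*-/- replicate 2 was 0.754, 0.380 and 0.439.

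In the other direction, *Peg10* and *1110065P20Rik* were higher in *Tdrd6*-/-. *Peg10* is an imprinted gene derived from a retrotransposon, and its intron (chr6:4747579-4754123, plus strand) lies in the 5′ UTR. It had 5.59 and 7.94 intron counts per 100 gene counts in the *Tdrd6*+/- samples against 16.6 and 18.2 in the *Tdrd6*-/- samples, without overlap (log2 fold change 1.401, SE 0.37, edgeR adjusted p = 0.0527). The counts were low, with 34 and 26 intron counts against 46 and 34. The gene count went the other way, from 479 and 324 to 271 and 253, with a log2 fold change of -0.78 that just missed the threshold of its own test (edgeR adjusted p = 0.10). *1110065P20Rik*, a coding gene with an intron of only 48 bp (chr4:124850474-124850521, minus strand), had 0.983 and 2.05 against 2.26 and 4.13, and the nearest samples of the groups differed little (log2 fold change 1.06, SE 0.30, edgeR adjusted p = 0.0831). Per kilobase the intron of *1110065P20Rik* was at 97.8% of the gene level, and no single annotated junction was listed for this gene. Whether its intron counts come from unspliced RNA was not tested. Both calls were lost without *Tdrd6*+/- replicate 1 (edgeR adjusted p = 0.821 for *Peg10* and 1.00 for *1110065P20Rik*) and without *Tdrd6*-/- replicate 2 (0.393 and 0.853). With 1 common total for intron and gene counts they were lost as well, at log2 fold changes of 1.01 and 0.69 (edgeR adjusted p = 0.365 and 0.563), and with TMM factors that of *1110065P20Rik* was lost (0.123).

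**Figure D2:**
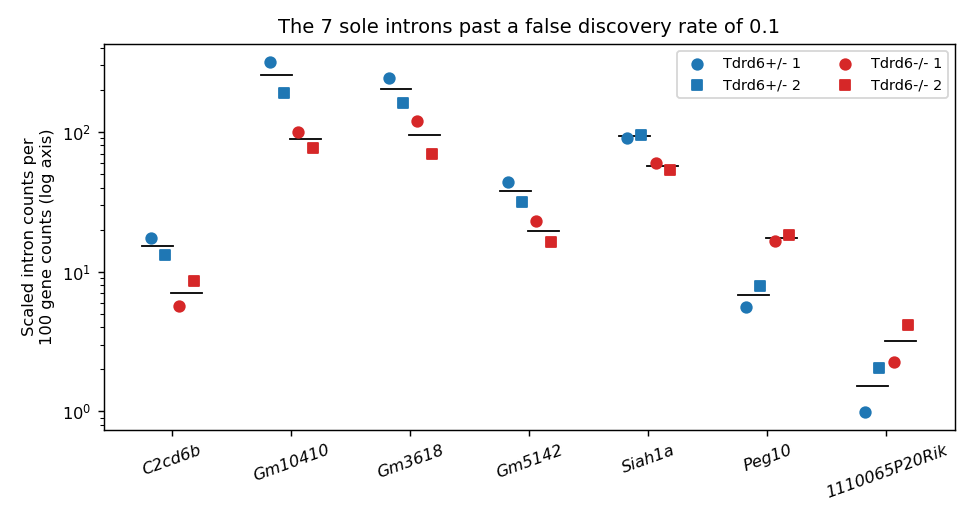
Scaled intron counts per 100 gene counts (log axis) in each of the 4 samples for the 7 sole introns past a false discovery rate of 0.1, with *Tdrd6*+/- in blue, *Tdrd6*-/- in red, circles for replicate 1, squares for replicate 2 and bars for the mean of 2 samples. The first 5 introns were lower in both *Tdrd6*-/- samples, from 17.4 and 13.1 to 5.67 and 8.51 for *C2cd6b*, and the last 2 were higher, from 5.59 and 7.94 to 16.6 and 18.2 for *Peg10*.

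Next in the higher direction, and past the threshold in neither case, came *Gm13140* and *Eno1b*. *Gm13140*, a processed pseudogene, had 1.64 and 2.25 intron counts per 100 gene counts in the *Tdrd6*+/- samples against 9.66 and 8.06 in the *Tdrd6*-/- samples (log2 fold change 2.21, SE 0.66, edgeR adjusted p = 0.112), from 3 intron counts in each *Tdrd6*+/- sample. *Eno1b*, an enolase gene, had 3.15 and 5.16 against 11.8 and 15.1 (1.63, SE 0.52, edgeR adjusted p = 0.156). The gene count of *Eno1b* fell, from 175 and 307 to 124 and 117 (log2 fold change -1.14, edgeR adjusted p = 0.0223). Of the exonic 31-base words, 63.2% in *Gm13140* and 89.0% in *Eno1b* occur in other genes, so both ratios are uncertain.

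Over the tested introns as a whole, the shift between genotypes was small and close to that of introns in general. The median log2 fold change was 0.22 for the 674 members and 0.17 for all introns tested, and 69.7% against 65.7% of values were above 0. Groups that did not overlap were seen in 207 members (30.7%) with higher and 69 (10.2%) with lower *Tdrd6*-/- values, beside 28.7% and 12.5% of all introns tested. The sign of this shift depended on the scaling. With TMM factors the medians were 0.12 for the members and 0.07 for all introns, and with 1 common total for intron and gene counts they were -0.16 and -0.20. The difference between the medians of members and all introns was 0.04 to 0.05 under these scalings, but it ran from -0.01 without *Tdrd6*-/- replicate 2 to 0.11 without *Tdrd6*-/- replicate 1. The calls moved with it, from 2 higher and 5 lower to 1 and 8 with TMM factors, 2 and 8 with median of ratios factors, and 0 and 9 with a common total. For all introns the split of 554 higher and 449 lower became 464 and 1034, 525 and 864, and 68 and 1745.

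**Figure D3:**
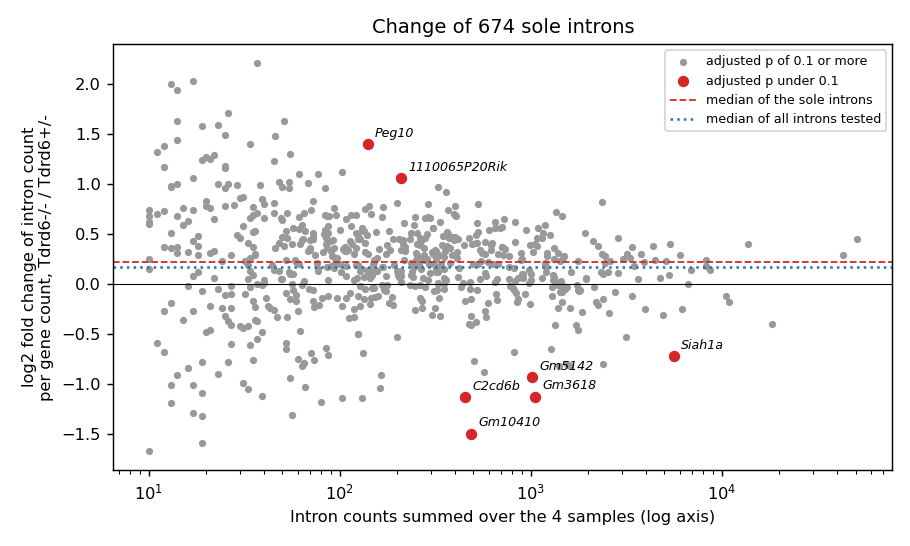
log2 fold change (*Tdrd6*-/- over *Tdrd6*+/-) of the intron count per gene count against the intron counts summed over 4 samples (log axis) for 674 sole introns, with those past a false discovery rate of 0.1 in red and named. The dashed line is the median of the sole introns (0.22) and the dotted line that of all introns tested (0.17).

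Summed over all 800 members, the scaled ratio was 17.8 and 19.6 intron counts per 100 gene counts in the *Tdrd6*+/- samples against 18.3 and 20.1 in the *Tdrd6*-/- samples. The means of 18.7 ± 1.25 (SD, n = 2) and 19.2 ± 1.25 (SD, n = 2) differed by less than the spread between replicates (exact permutation test, two-sided, p = 0.67, where 2 against 2 cannot go below 0.33). Unscaled, the same sums were 22.6 and 19.8 against 18.8 and 14.8, and the groups did not overlap (exact permutation test, p = 0.33, the smallest this design gives). A pair of members, *Gm26917* with 50926 and *Gm12462* with 42939 intron counts, held much of the sum, and without them the scaled values were 15.8, 16.8, 15.6 and 16.9 in the order *Tdrd6*+/- 1 and 2 and *Tdrd6*-/- 1 and 2. The sole introns took 0.964% and 1.10% of all intron counts in the *Tdrd6*+/- samples, against 1.06% and 1.21% in the *Tdrd6*-/- samples.

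The change differed with the length of the intron, a split made after the values were seen. The median log2 fold change was 0.40 for 126 introns of 50 to 499 bp, 0.30 for 160 of 500 to under 2000 bp, 0.09 for 195 of 2000 to under 10000 bp and -0.02 for 58 of 10000 bp or more. Of the 5 introns called lower, 4 were at least 10000 bp long. Introns of other genes were ordered in the same way, with medians of 0.29, 0.22, 0.10 and -0.06, and 178 of 7400 were called lower from 10000 bp, 100 of 24761 from 2000 to under 10000 bp, 10 of 27254 from 500 to under 2000 bp and 1 of 16012 from 50 to 499 bp. In short introns the scaled median ratio was 5.05 and 7.07 in the *Tdrd6*+/- samples against 7.07 and 8.13 in the *Tdrd6*-/- samples for 50 to 499 bp. In the longest it was 227 and 224 against 219 and 219. The fall from bin to bin was present in 12 of the 13 fits run, the exception being the fit without *Tdrd6*-/- replicate 2, where the medians were 0.14, 0.17, 0.001 and 0.01. With a common total the level moved down to 0.01, -0.08, -0.29 and -0.39 while the order stayed.

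**Figure D4:**
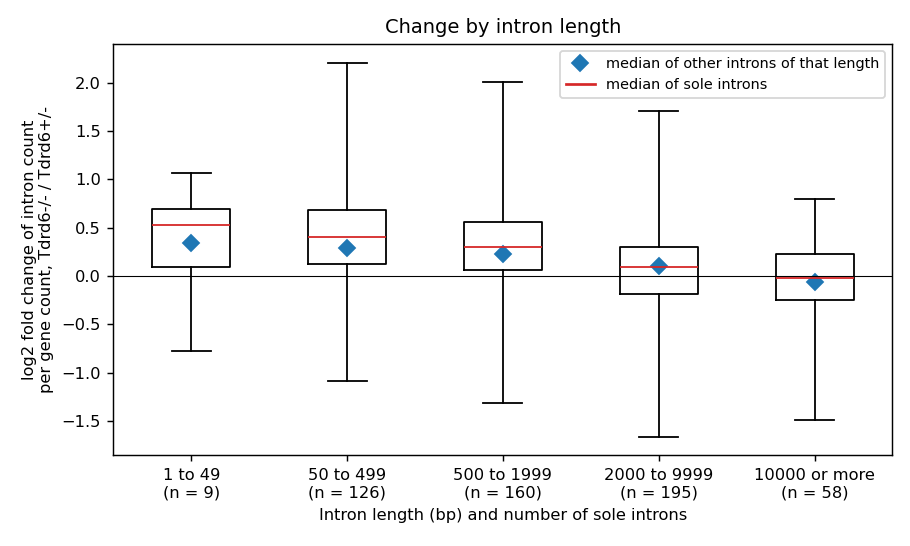
log2 fold change (*Tdrd6*-/- over *Tdrd6*+/-) of the intron count per gene count for tested sole introns in bins of intron length, with boxes for the quartiles, whiskers for the lowest and highest value and the median in red. Blue diamonds give the median of other introns of the same length; both series went down from 0.40 and 0.29 at 50 to 499 bp to -0.02 and -0.06 at 10000 bp or more.

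By place in the gene, the tested introns gave median log2 fold changes of 0.27 in the 5′ UTR (104 introns, 1 called higher and 1 lower), 0.18 in the coding part (182, 1 higher and 2 lower), 0.30 in the 3′ UTR (15, none called) and 0.21 in genes without a coding part (247, 2 lower). The 2 called in this last class were *C2cd6b* and *Gm10410*. Over all introns tested 0.48% were called higher and 0.389% lower, so counts of this size say nothing particular of a place. Long noncoding genes, by annotation type, numbered 269 members with 231 tested, and only *C2cd6b* was called. Introns that contained an exon of an antisense gene had a median of 0.20 over 118 tested, and those with no exon of another gene had 0.22 over 422. Over all introns tested the median was 0.17. With a common total for intron and gene counts the medians by place were -0.11, -0.20, -0.10 and -0.16 in the same order, and those with and without an antisense exon were -0.19 and -0.16, so only their size relative to all introns can be read.

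Gene families were represented by few members, and none of the following lists held a called intron. Zinc finger genes were the largest, with 30 members and 29 tested introns, a median log2 fold change of 0.35, which was -0.04 with a common total, and 13 introns without overlap in the higher direction against 4 in the lower, beside the 28.7% and 12.5% of all introns. The 8 G protein coupled receptor genes had long introns (median 14332 bp for those placed) and a median of 0.18, or -0.15 with a common total. Ribosomal protein genes had 4 members, of which 3 were tested. The log2 fold changes were 0.58 for *Rpl35a*, 0.55 for *Rpl41*, with an intron of 24 bp, and 0.48 for *Rpl37rt*. With a common total these were 0.17, 0.16 and 0.07. In all 3 the *Tdrd6*-/- samples lay above the *Tdrd6*+/- samples when scaled, while unscaled this held for *Rpl41* alone, and the adjusted p in edgeR was 0.576, 0.701 and 0.751. Heat shock and chaperone genes had 4 members, with values of 0.31 for *Hspa2*, -0.22 for *Hspa1l* and -0.13 for *Dnajc28*. Histone genes, 3 by symbol, were *Hist1h2bc* with 0.30, *Hist1h2bp* with 0.32 and *H3f3aos*, an antisense RNA rather than a histone gene, with -0.77 (edgeR adjusted p = 0.772), which rested on 19 intron counts. Translation and protein turnover genes, also 3, had a median of 0.30. With a common total *Hspa2* was at -0.08, *Hist1h2bc* at -0.10, *Hist1h2bp* at -0.06 and the turnover genes at -0.07.

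Of 19 genes of sperm chromatin and spermatids, 3 were members. *Odf1*, an outer dense fibre protein of the sperm tail, had 18.8 and 21.1 intron counts per 100 gene counts in the *Tdrd6*+/- samples against 15.8 and 19.2 in the *Tdrd6*-/- samples. *Tssk3*, a testis-specific kinase, had 4.00 and 12.4 against 14.7 and 14.7, and *Smcp*, the sperm mitochondrial cysteine-rich protein, had 112 and 57.7 against 75.6 and 141. The groups of *Odf1* and *Smcp* overlapped, and the adjusted p was 0.898, 0.667 and 0.799 in edgeR for *Odf1*, *Tssk3* and *Smcp*. At 45 to 128 intron counts in all, differences of this size could not be told from the spread.

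Where a single annotated exon-exon junction was listed, it gave a second view of splicing in the gene. Exactly 1 annotated junction was listed for 674 member genes, of which 178 had no junction count and 368 had at least 10. The median was 2.72 junction counts per 100 gene counts over these 674 genes, 5.80 for introns in the coding part and 1.09 for genes without a coding part. With edgeR's quasi-likelihood test 0 of the 368 junctions changed relative to the gene count at a false discovery rate of 0.1, beside 0.0408% of all 112756 junctions tested. An unadjusted p under 0.05 was reached by 23, DESeq2 called 0 of 32 to which it gave an adjusted p, and the smallest edgeR adjusted p was 0.399, for *Cetn1*, a centrin gene. For the 7 called introns, 4 had a tested junction, with log2 fold changes of 0.13 for *C2cd6b*, -0.16 for *Gm3618*, -0.14 for *Gm5142* and 0.34 for *Siah1a*, each smaller than that of the intron.

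Some genes were well counted without a single count on the annotated junction. This held for 16 members with at least 1000 gene counts, named here after their values were seen. *C1qtnf4* had 18258 gene counts, 17 intron counts and no junction count of either kind, and *Gm10010*, a lincRNA, had 18515 gene counts and 10945 intron counts. *Dand5*, an inhibitor of Nodal signalling, had 3338 gene counts and 121 intron counts. Other junctions, not in the annotation, were counted 358 and 279 times in *Tdrd6*+/- and 343 and 354 times in *Tdrd6*-/- for *Gm10010*, and 18 and 19 against 28 and 33 times for *Dand5*. For these genes the annotated splicing event was not detected, and the intron ratio is then no measure of its efficiency.

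The gene counts under the ratios were tested as well. With edgeR's quasi-likelihood test and Benjamini-Hochberg adjustment, 30 of 800 genes (3.75%) passed a false discovery rate of 0.1, 19 higher and 11 lower, beside 2.77% of 19116 genes tested, 1.0% higher and 1.76% lower. Among the 13379 genes with at least the 100 counts that the members needed, the share was 3.68%, close to that of the members, with 1.26% higher and 2.42% lower. Of the 19 that were higher, 7 had under 50 counts in the *Tdrd6*+/- samples together and reached the limit mainly through the *Tdrd6*-/- samples. The limit thus favoured higher *Tdrd6*-/- counts in these 7. Of the 11 lower, 1, *Gm597*, had 42 counts in *Tdrd6*-/-. With TMM factors the split was 13 higher and 18 lower, with median of ratios factors 15 and 19, and with DESeq2 14 and 13. In bulk samples, fewer cells of a type and less RNA per cell cannot be told apart. Without *Tdrd6*+/- replicate 1 only 7 genes passed, and without *Tdrd6*+/- replicate 2 it was 55.

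The genes named next were chosen after their values were seen. *Gm597* was the most changed, with 10.4 and 9.02 CPM in the *Tdrd6*+/- samples against 0.754 and 0.605 in the *Tdrd6*-/- samples (log2 fold change -3.83). With 540 counts in *Tdrd6*+/- against 42 in *Tdrd6*-/-, it became a member only through its *Tdrd6*+/- counts and is given as a description. *1110020A21Rik*, a long noncoding RNA with a bidirectional promoter, fell from 19.8 and 21.5 to 6.89 and 6.31 CPM (-1.65, SE 0.21, edgeR adjusted p = 5.76e-05). *Msl2*, a subunit of the MSL histone acetyltransferase complex, fell from 83.8 and 75.5 to 50.8 and 44.7 CPM (-0.74, SE 0.14, edgeR adjusted p = 0.00524). *Tob1*, an antiproliferative gene, fell by 0.75 on the log2 scale (edgeR adjusted p = 0.0256). In each of these genes both *Tdrd6*-/- samples lay below both *Tdrd6*+/- samples, and none of their introns passed the test relative to the gene count.

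The genes that rose included the following. *Fam170b*, an acrosomal protein gene, rose from 3.52 and 4.03 to 9.74 and 7.96 CPM (log2 fold change 1.23, SE 0.25, edgeR adjusted p = 0.00724). *Adam24*, a testis member of the ADAM protease family, rose from 3.02 and 3.32 to 7.71 and 5.89 CPM (1.10, SE 0.26, edgeR adjusted p = 0.0269). *Atp6v1e2*, the testis form of a proton pump subunit, rose from 2.15 and 2.02 to 4.99 and 4.33 CPM (1.16, SE 0.28, edgeR adjusted p = 0.0305). *Tmco2* had 12 and 26 gene counts against 76 and 68, and the lincRNA *4933434M16Rik* had 18 and 17 against 82 and 62. Both were among the 7 that became members mainly through their *Tdrd6*-/- counts, and are given as a description. The summed level of the 7 spermatid markers moved in the same direction, from 10.1 and 12.96 to 23.4 and 21.03 CPM with 2 of 7 called higher. The sums for Sertoli cells, for spermatogonia and early meiosis, and for primary spermatocytes without *Tdrd6* also rose. The part of these cell types in the changes was not tested. *Rpl41* was the most abundant gene that rose, from 177 and 191 to 228 and 296 CPM (0.51, SE 0.13, edgeR adjusted p = 0.0482).

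**Figure D5:**
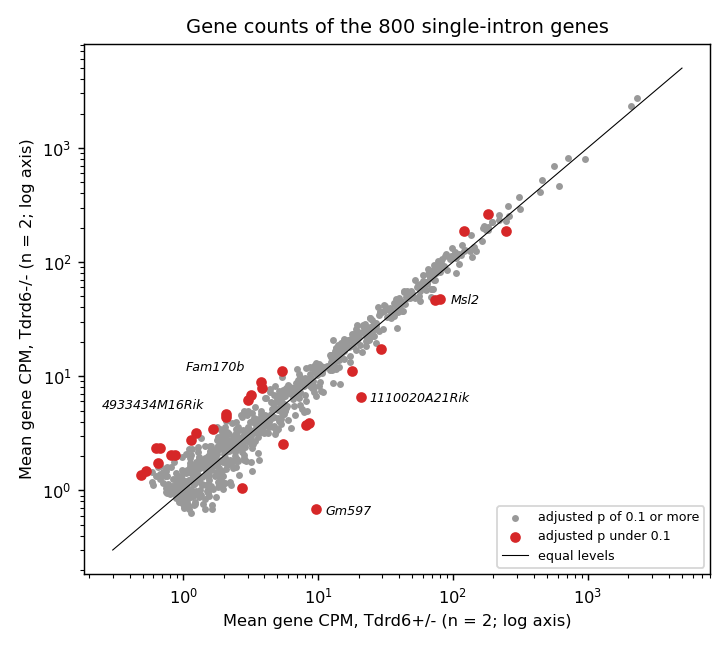
Mean gene CPM of the 800 single-intron genes in *Tdrd6*+/- (n = 2) and *Tdrd6*-/- (n = 2), both on log axes, with the 30 genes past a false discovery rate of 0.1 in red and the line of equal levels. *Gm597*, which became a member only through its *Tdrd6*+/- counts, lies farthest from the line, at a mean of 9.73 against 0.680 CPM.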

How the data were processed

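RNA of 2 Tdrd6+/- and 2 Tdrd6-/- samples was measured. The authors used GSNAP for alignment to mm10 and Ensembl 75 for annotation, and they deposited raw counts of fragments per intron, gene and junction, without normalization. The counting program and its use of strand are not given in the sources used here. Tallied fragments ran from 43778449 to 47221554 per sample. Symbols and positions came from GENCODE M21 of GRCm38 (mm10), and an intron was placed where the gene had exactly 1 gap between exons.

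Intron and gene counts of each intron entered edgeR 4.0.16 (R 4.3.3) as 8 columns, with sample, count type and the interaction of type and genotype, library sizes from the intron and gene totals, and the quasi-likelihood test of the interaction. All introns with at least 10 intron and 100 gene counts were fitted together. DEXSeq, used in the study, needs other introns of the gene. Junctions were tested likewise, and gene counts by genotype alone. The SE beside a log2 fold change was derived from the test. It is the absolute log2 fold change divided by the square root of the F statistic. Simulated data had the same spread for every feature and 200 changed features, so their rates need not hold for the real data. On them the gene step recovered 83% of log2 changes of 1 and 99.5% of log2 changes of 2. The intron step recovered 0% of log2 changes of 1, and 100% of its calls there were false. Of log2 changes of 2 it recovered 91%, with 9.45% of its calls false. DESeq2 1.42.0, other scalings and filters, the replicate block and leaving out each sample were alternatives. Samples of 1 genotype differed by more than sampling noise (chi-square per degree of freedom 10.9 and 7.47 over the 800 genes). The members and lists were chosen with earlier results of these data known. Named were the called introns (where under 4 passed in a direction, those next in p without overlap), the 5 highest and 3 lowest ratios, the 4 highest gene counts, list members and genes at the count limit. Other names were chosen after their values were seen.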

Additional observations from a re-analysis of the deposited data

Results flagged for a closer look

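Junctions that the annotation does not hold were left out of the comparisons above. They were listed for 91 of the 800 single-intron genes, with 4762 and 5594 counts in the Tdrd6+/- samples against 6169 and 6746 in the Tdrd6-/- samples. Scaled by the gene total, as for CPM, this was 180 and 191 against 202 and 215, and the ratio of the means was 1.124, which stood out because both Tdrd6-/- samples lay above both controls. The gene counts of the same 91 genes were also higher, at 9025 and 9589 against 9882 and 10335 CPM. Per 100 gene counts of these genes, the unannotated junctions gave 1.99 and 1.99 against 2.05 and 2.08, a ratio of 1.035. The difference was not tested for single junctions.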

How the results depend on the processing

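The count of sole introns called, 7 as reported, was 0 with DESeq2, 14 with the gene count as offset, 13 with the replicate block and 4 at a false discovery rate of 0.05; leaving out 1 sample gave 0 to 19. Over all introns the 1003 calls became 34 with DESeq2, 1813 with a common total, 1754 with at least 50 intron counts, 2678 with the replicate block and 538 at a false discovery rate of 0.05, and 34 to 3330 without 1 sample. The median log2 fold change of the members reversed to -0.16 with a common total and ran from 0.07 to 0.35 without 1 sample. The 30 changed genes became 53 with the replicate block and 16 at a false discovery rate of 0.05, and 7 to 55 without 1 sample. Called junctions stayed at 0 in every fit but that without Tdrd6+/- replicate 2, which called 1, a range of 0 to 1. None of the 7 called introns, Gm13140 and Eno1b reversed in any fit, although Siah1a lost its call with at least 1 intron count (edgeR adjusted p = 0.107), as did 1110065P20Rik with the gene count as offset (0.115). With a common total Hspa2, Hist1h2bc and Hist1h2bp turned to -0.08, -0.10 and -0.06. DESeq2 gave an adjusted p for only 118 of the 674 introns. The replicate numbers do not pair the samples by their labels, and deviations of same-numbered samples correlated at -0.110 for genes, -0.0114 for introns and -0.101 for junctions. With the numbers crossed between the genotypes, an alternative added after seeing the data, 71 genes and 0 junctions were called. With 2 samples a genotype, the calls changed with the sample left out. Without Tdrd6+/- replicate 1 the log2 fold changes of the lower introns were -0.93 (C2cd6b), -1.11 (Gm10410), -0.82 (Gm3618), -0.69 (Gm5142) and -0.75 (Siah1a). Those of the higher introns were 1.12 (Peg10) and 0.60 (1110065P20Rik). Only that of Siah1a was larger than with all samples. Reliance on a sample and the loss of power with fewer samples could not be told apart. A lone sample left in a group is assumed to vary like the others. Counts under 10 on an intron were not tested. The causes were not tested.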

Other observations

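The X chromosome held 33 of the single-intron genes, a group looked at after the values were seen. Their gene counts summed to 79.5 and 86.9 CPM in the Tdrd6+/- samples against to 118 and 119 in the Tdrd6-/- samples. The median log2 fold change of the gene count was 0.67 for these 33 genes and 0.10 for 750 autosomal members, beside 0.38 for 799 other X-linked genes and 0.08 for 17205 other autosomal genes. Membership used the gene count, so these values are a description, and other X-linked genes with at least 100 counts had a median of 0.36 (400 genes). Of the 33, 3 passed the gene count test of edgeR at a false discovery rate of 0.1, all higher. All 3 had under 50 counts in the Tdrd6+/- samples together and reached 100 counts mainly through the Tdrd6-/- samples. Of the 799 other X-linked genes 17 were called higher and 0 lower, and of the 17205 other autosomal genes 152 higher and 316 lower. The median ran from 0.55 to 0.69 over TMM factors, median of ratios factors and the fits without 1 sample, and without Tdrd6+/- replicate 1 none of the 33 passed. For the introns of the X-linked members the median log2 fold change of the intron count per gene count was 0.19 over 22 tested, beside 0.23 over 641 autosomal members. The summed spermatid markers, which rose from 10.1 and 12.96 to 23.4 and 21.03 CPM, moved in the same direction as the X-linked gene counts. So did the Sertoli cell markers, from 55.4 and 45.7 to 62.4 and 65.7 CPM. The markers of spermatogonia and early meiosis rose from 26.6 and 25.4 to 31.9 and 35.6 CPM. Those of primary spermatocytes without Tdrd6 were higher as well. The part of these cell types was not tested.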
